A study of Mus musculus with 12 samples.

Results

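The Wnt family and its receptors were described here in mouse liver: the secreted Wnt ligands, the R-spondins that amplify them, the Frizzled, Lrp and Lgr receptors, the Dickkopf and secreted frizzled-related inhibitors, the feedback proteins Axin, Znrf3 and Rnf43, and the TCF and LEF factors. Genes were taken by symbol, which gave 53 members among 19084 genes with a named probe. Of these, 19 are Wnt ligands, 10 Frizzled receptors, 4 R-spondins, 3 Lgr receptors, 2 Lrp co-receptors, 4 Dickkopf proteins, 4 secreted frizzled-related proteins, 2 Axins, 2 ubiquitin ligases (Znrf3 and Rnf43) and 3 TCF and LEF factors. Each gene was read from its brightest probe.

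RNA came from whole liver of male C57BL/6 mice, with 3 arrays in each of 4 groups, in a study of a citrus flavonoid extract (PTFC) and diet-induced fatty liver. PTFC mice ate a high-fat diet for 24 weeks and received the extract by stomach tube at 50 mg per kg per day during the last 18 of those weeks. HFD24 mice had the same diet for 24 weeks, HFD16 mice had it for 16 weeks, and ND mice were kept on a normal diet for 24 weeks. These 3 groups were given saline instead of the extract. The high-fat diet supplied 36.1% fat and 42.3% carbohydrate with 2% cholesterol added, and the normal diet 12.3% fat and 66.2% carbohydrate. Mice of the PTFC and HFD24 groups were 31 to 33 weeks old, HFD16 mice 23 to 25 weeks, and ND mice 30 to 33 weeks, so age cannot be told apart from weeks of diet wherever HFD16 is compared. All mice were fasted overnight. The labels give 6 mice per group and do not say that each array is a separate animal, so the p-values rest on the spread among arrays, part or all of which may be technical.

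A Wnt ligand bound to a Frizzled receptor and its co-receptor Lrp5 or Lrp6 stabilizes beta-catenin, which then works with TCF and LEF factors to switch on target genes. In liver, endothelial cells of the central vein make Wnt2, Wnt9b and Rspo3, and hepatocytes beside the vein respond with a gene programme that includes Axin2 and glutamine synthetase. R-spondins bind Lgr4, Lgr5 and Lgr6 and so remove Znrf3 and Rnf43, which otherwise clear Frizzled receptors from the cell surface.

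Promoter sequence was available for some of the members that passed a test described below, and 4 of them are shown as examples. Axin2 and Rspo1 passed in comparisons of the diets, Wnt3 and Wnt3a in PTFC with HFD24. Dkk2, Fzd1, Fzd9, Wnt4 and Wnt11 also passed in a comparison and had an entry, but are not shown. Each run is the 250 bases before a RefSeq start site (build GRCm38.p6), read on the gene's strand. Capitals mark the core letters bound by TCF and LEF factors (CTTTG) and the GC box (GGGCGG), on either strand. The positions are chr11:108920099-108920348 (plus strand) for Axin2, chr4:124986180-124986429 (plus) for Rspo1, chr11:103773925-103774174 (plus) for Wnt3 and chr11:59290752-59291001 (minus) for Wnt3a.
Axin2: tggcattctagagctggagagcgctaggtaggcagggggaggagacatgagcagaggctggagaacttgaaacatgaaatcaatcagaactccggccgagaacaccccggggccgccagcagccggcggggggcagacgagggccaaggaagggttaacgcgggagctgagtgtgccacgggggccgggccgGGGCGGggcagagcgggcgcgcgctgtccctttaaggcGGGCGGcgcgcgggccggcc
Rspo1: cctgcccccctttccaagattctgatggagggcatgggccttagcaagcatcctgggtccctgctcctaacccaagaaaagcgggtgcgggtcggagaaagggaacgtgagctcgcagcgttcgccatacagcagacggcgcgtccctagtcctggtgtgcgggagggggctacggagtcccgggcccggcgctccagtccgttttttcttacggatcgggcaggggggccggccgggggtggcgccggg
Wnt3: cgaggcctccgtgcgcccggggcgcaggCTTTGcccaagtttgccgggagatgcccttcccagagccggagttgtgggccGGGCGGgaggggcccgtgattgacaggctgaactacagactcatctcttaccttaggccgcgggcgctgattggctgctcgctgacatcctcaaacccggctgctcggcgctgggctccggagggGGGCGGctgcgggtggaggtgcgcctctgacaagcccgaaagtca
Wnt3a: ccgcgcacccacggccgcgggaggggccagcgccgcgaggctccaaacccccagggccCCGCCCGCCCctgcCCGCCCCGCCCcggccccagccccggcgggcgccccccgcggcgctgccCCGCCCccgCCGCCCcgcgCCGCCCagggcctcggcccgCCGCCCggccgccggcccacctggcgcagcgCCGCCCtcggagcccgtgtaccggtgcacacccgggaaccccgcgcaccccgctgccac
The Axin2 run held 2 GC boxes and no CTTTG, the Rspo1 run held neither motif, the Wnt3 run held 1 CTTTG and 2 GC boxes, and the Wnt3a run held 9 GC boxes, some of them overlapping, and no CTTTG. Over 42 promoter entries of 34 members, 19 held CTTTG and 28 held GGGCGG. Among 32851 mouse promoters of the same length, 48.6% held CTTTG and 32.7% held GGGCGG. The 4 runs shown had 66.8% to 87.6% G and C, against a median of 52.4% over all promoters. GGGCGG holds only G and C, and its share was not adjusted for base composition. A match of letters is a description and shows no binding.

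Median deposited intensity, a measure of the brightness of an array, was 369 to 408 on PTFC arrays, 249 to 338 on HFD24 arrays, 278 to 330.1 on HFD16 arrays and 300.3 to 379 on ND arrays. The PTFC arrays were all brighter than the HFD24 and HFD16 arrays. Levels are given below as normalized intensity, after the 12 arrays were brought to one distribution. Differences are on the scale of log2 of the intensity plus 1, with standard errors (SE), and a gene is said to have passed where limma, with Benjamini-Hochberg adjustment over all 19084 genes, gave an adjusted p under 0.05. A gene is called dim where its mean lay in the lowest 25% of genes, below an intensity of about 113.6. By that rule 13 of the 53 members were dim, among them Rspo1, Rspo2, Rspo4, Lrp6, Lef1, Lgr6 and Dkk1.

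On 24 weeks of high-fat diet, 9 of the 53 members passed the test, 3 higher and 6 lower than on normal diet. Fzd2, Fzd6, Fzd9, Wnt7b, Axin2 and Dkk2 fell, while Rspo1, Rspo3 and Dkk3 rose. The share of members called was 17.0%, against 18.3% of all genes. By direction, 5.66% of members were called higher, against 10% of all genes, and 11.3% were called lower, against 8.29% of all genes. The share that passed was thus near that of the array as a whole. Without the third ND array 16 members passed, and without the second or the third HFD24 array or the first or second ND array 6 did. The median log2 difference was -0.19 over the members and -0.06 over all genes. At an unadjusted p under 0.05 in limma, 18 of the 53 members passed, against 32.7% of all genes. In 15 members, 28.3% against 33.6% of all genes, the arrays of the groups did not overlap: 4 were higher (7.55% against 15.5%) and 11 lower (20.8% against 18.1%).

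**Figure D1:**
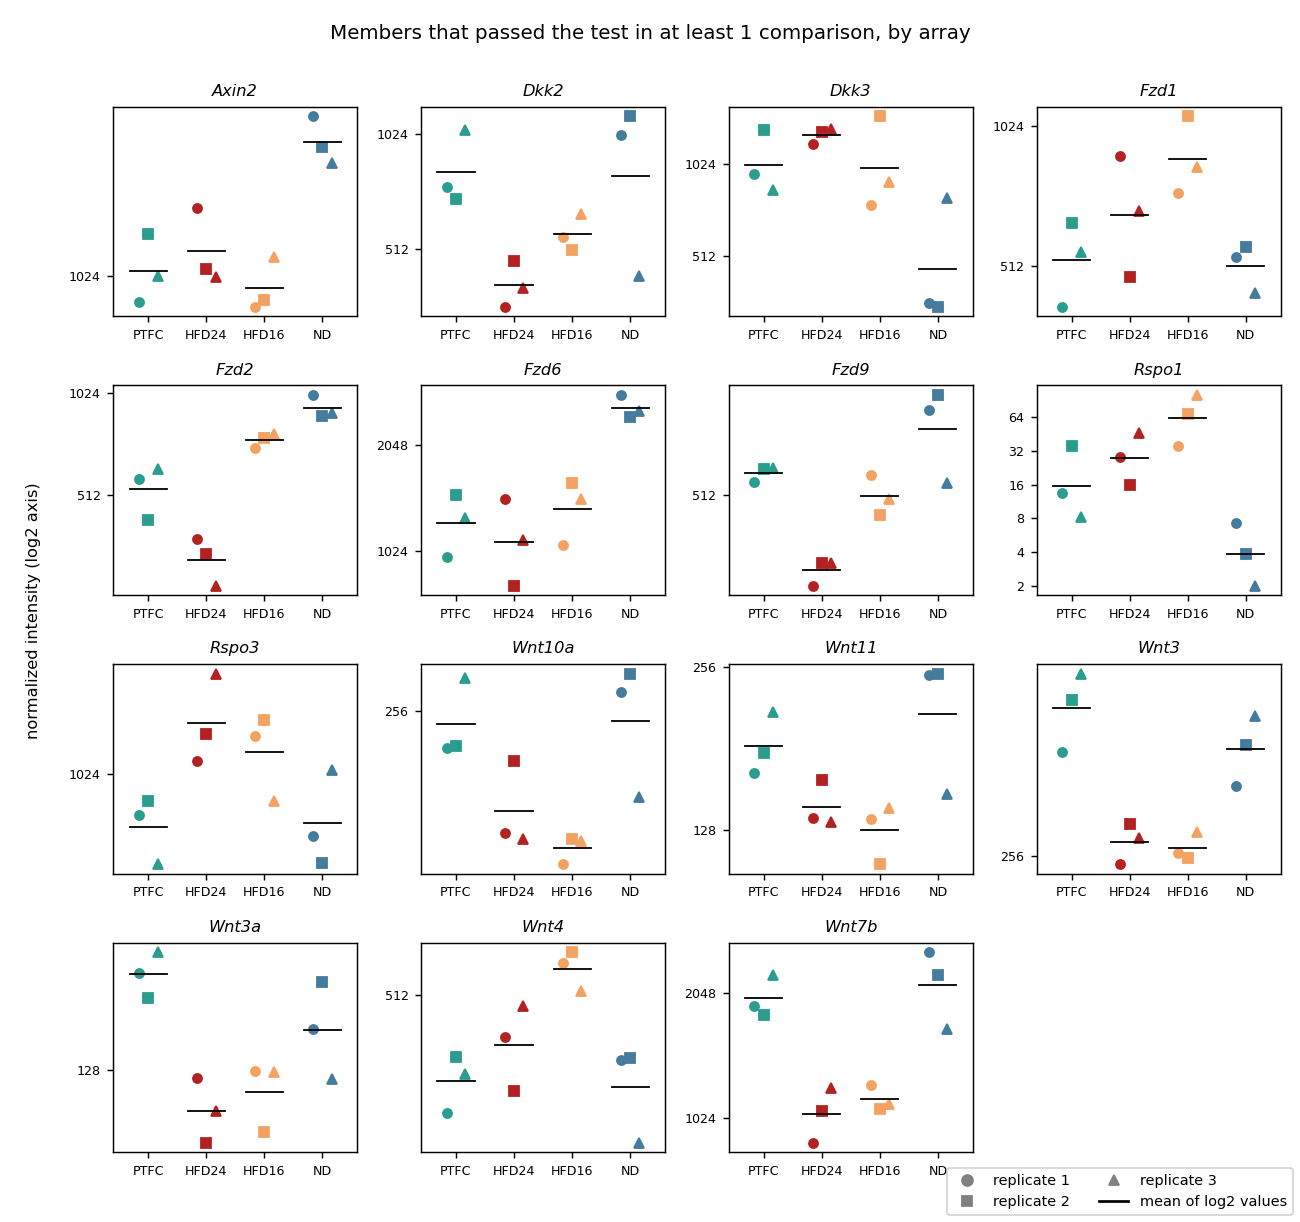
Normalized intensity (log2 axis) of the 15 members that passed the test in at least 1 comparison. Each point is 1 array and bars are means of the log2 values; groups run from PTFC at the left to ND at the right. Fzd6 and Axin2 were highest on the 3 ND arrays, and Wnt3 was higher on every PTFC array than on any HFD24 or HFD16 array.

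Among the ligands, Wnt7b, which acts through beta-catenin in developing lung and kidney, had normalized intensities of 892, 1064 and 1211 on HFD24 arrays, against 2561, 2255 and 1677 on ND arrays. Every HFD24 array was below every ND array. The log2 difference was -1.02 ± 0.19 (limma adjusted p = 0.00306). No other of the 19 Wnt ligands passed at 24 weeks. In all, 15 of the 19 had a difference below 0, and the median of the 19 was -0.35. The largest differences that did not pass were those of Wnt1 (-0.64, limma adjusted p = 0.0573), the dim Wnt8b (-0.64, limma adjusted p = 0.0586) and Wnt3a (-0.59, limma adjusted p = 0.0679), all ligands that can act through beta-catenin. The ligands with a difference above 0 were Wnt2, Wnt4, Wnt5b and Wnt7a, at 0.13 to 0.35.

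Wnt2 and Wnt9b, the ligands made by central vein endothelium, did not pass. Wnt2 read 1753, 1121 and 1757 on HFD24 arrays, against 1459, 1154 and 1566 on ND arrays, and the groups overlapped (0.13 ± 0.22, limma adjusted p = 0.729). Wnt9b read 302, 459 and 511 on HFD24 arrays, against 653, 531 and 565 on ND arrays. All HFD24 values of Wnt9b were lower, by a log2 difference of -0.49 ± 0.21 that did not pass (limma adjusted p = 0.127).

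Of the R-spondins, Rspo3, the form made by the central vein, rose, with the largest adjusted p of the 9 calls. It read 1093, 1249 and 1685 on HFD24 arrays, against 755, 661 and 1045 on ND arrays. The groups did not overlap, although the third ND array came close to the first HFD24 array. The log2 difference was 0.71 ± 0.23 (limma adjusted p = 0.0482). This call was lost when any 1 of 9 arrays was left out, namely each HFD24 array, each PTFC array, the first HFD16 array and the first and second ND arrays (limma adjusted p 0.0522 to 0.179 where lost). It was also lost with the array median as a covariate, the replicate number as a block, no intensity trend or the authors' scale (limma adjusted p 0.0521 to 0.103), and with the scaling step as a covariate the difference was 0.41 (limma adjusted p = 0.392).

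Rspo1, a secreted R-spondin best known from ovary development, was close to the floor of the arrays in every group. It read 28.2, 15.8 and 45.9 on HFD24 arrays, against 7.33, 3.84 and 2.01 on ND arrays, without overlap. The log2 difference was 2.52 ± 0.55 (limma adjusted p = 0.00762). Because the levels are so low, that size depends on the pseudocount: with 32 in place of 1 it was 0.75 (limma adjusted p = 0.045). Rspo2 and Rspo4, which were dim too, had differences of -0.19 and -0.06.

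The Frizzled receptors held the largest fall among the members. Fzd2 read 379.9, 341 and 276 on HFD24 arrays, against 1009, 872 and 891 on ND arrays, a clear separation. The log2 difference was -1.48 ± 0.17 (limma adjusted p = 0.000349). A second, dimmer Fzd2 probe read 119, 216 and 204 on HFD24 arrays and 230.3, 214 and 196 on ND arrays. On that probe the groups overlapped and the difference was -0.29 ± 0.22 (limma adjusted p = 0.393), so the size of the Fzd2 change rests on the brighter probe. With both probes averaged the difference was -0.89 (limma adjusted p = 0.00286).

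Fzd6, a receptor tied to planar polarity and able to restrain beta-catenin signalling, read 1434, 818 and 1101 on HFD24 arrays, against 2831, 2450 and 2544 on ND arrays. Its HFD24 values were spread but all lay well below ND (log2 difference -1.26 ± 0.23, limma adjusted p = 0.00291). Fzd9, a receptor known from bone and brain, read 352, 386 and 387 on HFD24 arrays, against 729, 775 and 538 on ND arrays. It too separated the groups (-0.84 ± 0.16, limma adjusted p = 0.00387). The other 7 Frizzled genes did not pass on their brightest probes, with log2 differences of -0.40 to 0.39. Fzd4, a receptor of endothelial cells, was one of them (0.39 ± 0.31, limma adjusted p = 0.402). For Fzd5, which signals in gut epithelium, the brightest probe gave -0.16 and a second probe -0.71 ± 0.19 (limma adjusted p = 0.0206), and the third, dim probe -0.11, so the probes of Fzd5 disagree in size.

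Fzd2, Fzd6 and Wnt7b stayed past the threshold under all 21 alternative settings, including each array left out in turn. Fzd9, Dkk3 and Rspo1 were lost under 1 of those run, a fit with the scaling step of each array as a covariate (limma adjusted p 0.0563, 0.126 and 0.102). That step was larger on every ND array than on any other array, so it cannot be fully told apart from diet.

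Co-receptors and R-spondin receptors did not pass at 24 weeks. Lrp5 had a log2 difference of -0.48 (limma adjusted p = 0.109) and the dim Lrp6 one of 0.29 (limma adjusted p = 0.491). Lgr5, a receptor and Wnt target of pericentral hepatocytes, read 2447, 1622 and 2124 on HFD24 arrays, against 1865, 2063 and 1791 on ND arrays. Those ranges overlapped (0.10 ± 0.17, limma adjusted p = 0.735). Lgr4, the broadly expressed form, read 9038, 10210 and 9723 on HFD24 arrays, against 6812, 6882 and 11206 on ND arrays. The third ND array was the highest of the 6 (0.26 ± 0.20, limma adjusted p = 0.406).

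The Dickkopf proteins split. Dkk3, a divergent member also made by stromal cells, read 1185, 1297 and 1333 on HFD24 arrays, against 359, 348 and 791 on ND arrays. The third ND array came nearest to the HFD24 values without reaching them, and the log2 difference was 1.46 ± 0.31 (limma adjusted p = 0.00727). Dkk2, an Lrp5 and Lrp6 ligand that can inhibit the pathway, read 361, 476 and 404 on HFD24 arrays, against 1015, 1136 and 435 on ND arrays. Its groups overlapped through the third ND array, and the difference of -0.95 ± 0.30 passed narrowly (limma adjusted p = 0.0434). It was lost when any 1 of 8 arrays was left out, the third HFD16, first and second PTFC, each HFD24 and the first and second ND arrays (limma adjusted p 0.0508 to 0.179 where lost), and with the array median or the scaling step as a covariate, the replicate block or the authors' scale (limma adjusted p 0.0547 to 0.322). Without the third ND array it was -1.38. Dkk4 and the dim Dkk1, both inhibitors, did not pass (0.32 and -0.03). None of the 4 secreted frizzled-related proteins passed, with log2 differences of -0.46 to 0.14.

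Axin2, the negative regulator that is itself a standard beta-catenin target, read 1311, 1051 and 1021 on HFD24 arrays, against 1823, 1631 and 1543 on ND arrays. No HFD24 value reached the ND range, and the log2 difference was -0.57 ± 0.16 (limma adjusted p = 0.0302). The call was lost without the second or the third HFD24 array or the first or second ND array (limma adjusted p 0.0778 to 0.122). It was lost too with the replicate block (limma adjusted p = 0.0579), with the scaling step in the model (limma adjusted p = 0.157) and with median centring, where the difference was -0.37 (limma adjusted p = 0.2). Rnf43 and Znrf3, the ligases that remove Frizzled receptors, had differences of 0.08 and 0.21 with overlapping arrays. Tcf7l2, the main TCF factor of liver, read 6972, 7758 and 5365 on HFD24 arrays, against 8544, 6581 and 7245 on ND arrays (-0.16 ± 0.19, limma adjusted p = 0.591). Lef1, which adult hepatocytes hardly express, was dim, with 22.5, 32.6 and 17.7 on HFD24 arrays and 10.8, 12 and 28.2 on ND arrays.

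**Figure D2:**
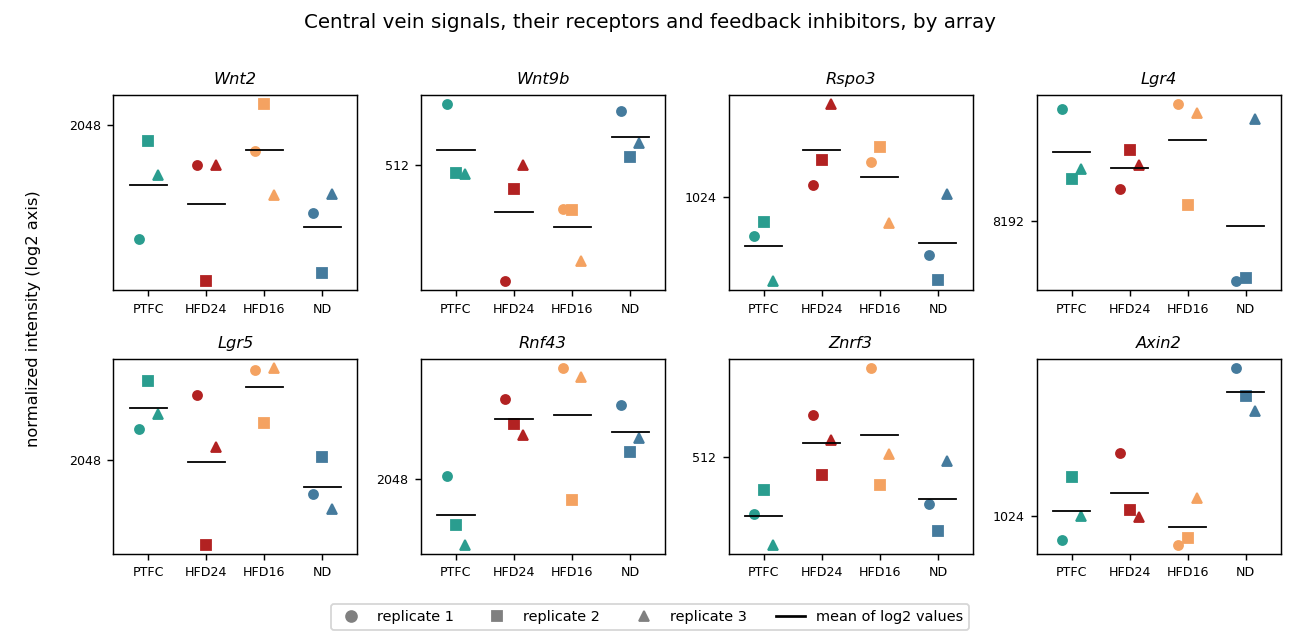
Normalized intensity (log2 axis) of the central vein signals Wnt2, Wnt9b and Rspo3, the receptors Lgr4 and Lgr5 and the feedback genes Rnf43, Znrf3 and Axin2. Each point is 1 array, bars are means of the log2 values and groups run from PTFC to ND. Rspo3 was high on all HFD24 arrays, from 1093 to 1685, while Axin2 on all high-fat diet arrays, with or without extract, stayed below the lowest ND value of 1543.

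At 16 weeks of the same diet, 10 of the 53 members passed, or 18.9%, against 18.1% of all genes. Dkk3, Fzd1, Rspo1 and Wnt4 rose, 7.55% of members against 10% of all genes called higher. Axin2, Fzd6, Wnt3, Wnt7b, Wnt10a and Wnt11 fell, 11.3% of members against 8.11% of all genes called lower. Without the third ND array 15 members passed, against 4 without the second HFD16 or the first ND array and 5 without the third HFD16 or the second ND array. The ND arrays are the same as in the comparison at 24 weeks, so the results of both times are not independent. Arrays did not overlap in 16 members, 30.2% against 35.8% of all genes, with 5 higher (9.43% against 16.9%) and 11 lower (20.8% against 18.9%). At an unadjusted p under 0.05 in limma, 18 of the 53 members passed, against 33.9% of all genes.

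Axin2 read 918, 942 and 1100 on HFD16 arrays, below all ND values given above (-0.76 ± 0.16, limma adjusted p = 0.00936). Wnt7b read 1230, 1075 and 1107 on HFD16 arrays, also below all ND values (-0.91 ± 0.19, limma adjusted p = 0.00785). Fzd6 read 1067, 1592 and 1434 on HFD16 arrays, again below ND (-0.95 ± 0.23, limma adjusted p = 0.0145). Leaving out the first ND array ended the Fzd6 call (limma adjusted p = 0.061). With median centring neither Axin2 nor Fzd6 passed, at differences of -0.57 and -0.76 (limma adjusted p 0.0526 and 0.0538). Rspo1 read 35, 68.2 and 100.4 on HFD16 arrays, 2 of them above every other array, with a difference of 3.67 ± 0.55 (limma adjusted p = 0.00204). With a pseudocount of 32 that difference was 1.41 (limma adjusted p = 0.0031). Fzd2 did not pass at 16 weeks on its brightest probe (-0.31). Its second, dimmer probe did, at -0.68 ± 0.22 (limma adjusted p = 0.0497, adjusted over all named probes).

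Wnt4, a ligand expressed in stromal and epithelial cells of many organs, read 588, 617 and 521 on HFD16 arrays, against 386, 389 and 269 on ND arrays. All HFD16 values were higher (0.74 ± 0.19, limma adjusted p = 0.02), and the call was lost without the second HFD16 array (limma adjusted p = 0.065). Fzd1, a widely expressed receptor, read 735, 1074 and 835 on HFD16 arrays, against 534, 563 and 448 on ND arrays. It also separated the groups (0.76 ± 0.23, limma adjusted p = 0.0395), and was lost without the second or the third HFD16 array, any ND array or the third PTFC array (limma adjusted p 0.0523 to 0.134). Dkk3 read 752, 1462 and 893 on HFD16 arrays and overlapped ND through its first array (1.10 ± 0.31, limma adjusted p = 0.0295). Without the second or the third HFD16 or the first or second ND array it did not pass (limma adjusted p 0.0628 to 0.122).

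Wnt10a, known for skin appendages and fat precursor cells, read 142 to 156 on the 3 HFD16 arrays, against 275, 295 and 184 on ND arrays. Wnt11, a mostly noncanonical ligand, read 134, 111 and 141 on HFD16 arrays, against 248, 249 and 149 on ND arrays. Both separated the groups, with log2 differences of -0.70 ± 0.20 and -0.71 ± 0.21 (limma adjusted p 0.0299 and 0.0326). Both calls were lost when any 1 HFD16 array or the first or second ND array was left out (limma adjusted p 0.0512 to 0.133). Wnt3, a canonical ligand, read 258, 254 and 277 on HFD16 arrays, against 323, 371 and 409 on ND arrays (-0.47 ± 0.15, limma adjusted p = 0.0471). Its call was the least stable, lost when any array but the first HFD24 and the first PTFC array was left out (limma adjusted p 0.0503 to 0.12).

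For HFD16 with ND, same-numbered arrays of both groups deviated together, with correlations of 0.105 to 0.145 in the 3 pairs. Over all pairs of groups, the median correlation was -0.05 for same-numbered and 0.025 for differently numbered arrays. With the replicate number as a block, Fzd1, Wnt11 and Wnt3 did not pass (limma adjusted p 0.0656, 0.0574 and 0.0586) and the other 7 did. On the authors' scale Fzd1 and Wnt4 did not pass (limma adjusted p 0.0865 and 0.12), and Wnt3 was lost with a pseudocount of 32, with no intensity trend or with dim genes left out (limma adjusted p 0.0507 to 0.0619). With the array median as a covariate, 5 of these 10 calls at 16 weeks remained: Axin2, Fzd6, Rspo1, Wnt4 and Wnt7b. With the scaling step as a covariate none remained (limma adjusted p 0.0672 to 0.572), and the differences were 0.43 for Dkk3, 0.35 for Fzd1 and -0.37 for Wnt11. Here too the step cannot be fully told apart from diet. Rspo4, which was dim on 11 arrays at 51.3 to 76.2, read 1916 on the first HFD16 array alone. On that same array a second Axin1 probe was listed at 0, against 382 to 555 on the other 11 arrays. The cause of these 2 readings was not tested.

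Between both lengths of diet, 1 member passed, 1.89% of members against 0.0367% of all genes, which is 7 genes, 3 of them higher (0.0157%) and 4 lower (0.021%). Arrays did not overlap in 10 members, 18.9% against 16.4% of all genes, with 2 higher (3.77% against 6.25%) and 8 lower (15.1% against 10.1%). At an unadjusted p under 0.05 in limma, 13.2% of members passed, against 9.75% of all genes. Fzd2 read 379.9, 341 and 276 on HFD24 arrays, against 704, 751 and 772 on HFD16 arrays. The HFD24 arrays were all lower (-1.17 ± 0.17, limma adjusted p = 0.0349). The second Fzd2 probe went the other way, with 113, 136 and 151 on HFD16 arrays and a difference of 0.39 ± 0.22 (limma adjusted p = 0.588), and with the mean of both probes the difference was -0.39 (limma adjusted p = 0.464). The call was also lost when any HFD24 or HFD16 array, the first or second ND array or the first PTFC array was left out (limma adjusted p 0.0639 to 0.144). Next in order of p were Sfrp1, a secreted Wnt inhibitor (-0.56 ± 0.15, limma adjusted p = 0.293), and Fzd9 (-0.44 ± 0.16, limma adjusted p = 0.408), which did not pass.

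In mice given the extract on high-fat diet, 4 of the 53 members were higher than on the diet alone and none was lower. They were the ligands Wnt3, Wnt3a and Wnt7b and the receptor Fzd2. The 4 calls are 7.55% of members, against 5.98% of all genes in either direction, 2.94% of all genes called higher and 3.04% called lower. At an unadjusted p under 0.05, 14 members or 26.4% passed in limma, against 24.4% of all genes. The median log2 difference was 0.10 over the members and 0.01 over all genes; with arrays centred on their medians, the members' median was -0.02. The split of all calls depended on the scaling. Higher calls were 49.2% of the 1142 called genes here, 37.2% with arrays centred on their medians and 90.4% on the authors' own scale.

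Wnt3a, the canonical ligand used most often to activate beta-catenin in culture, read 211, 185 and 234 on PTFC arrays, against 122, 87.8 and 104 on HFD24 arrays. Every PTFC array was higher (1.01 ± 0.21, limma adjusted p = 0.0241). Wnt7b read 1903, 1810 and 2264 on PTFC arrays, against 892, 1064 and 1211 on HFD24 arrays, with no overlap (0.92 ± 0.19, limma adjusted p = 0.0232). Wnt3 read 363, 431 and 470.3 on PTFC arrays, against 249, 285 and 271 on HFD24 arrays. It too did not overlap (0.64 ± 0.15, limma adjusted p = 0.033). Fzd2 read 568, 432 and 612 on PTFC arrays, against 379.9, 341 and 276 on HFD24 arrays, again without overlap (0.69 ± 0.17, limma adjusted p = 0.0387). Its second probe gave 0.24 ± 0.22 (limma adjusted p = 0.549), and with both probes averaged the difference did not pass (0.46, limma adjusted p = 0.095).

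These 4 calls did not survive every change of the arrays or the model. Without the third PTFC array, the first HFD24 array or the second HFD24 array, no member passed, and without the third HFD24 array 1 did. Without the first PTFC or the third HFD16 array 2 passed, Wnt3 was also lost without the second PTFC array and Fzd2 without the second ND array. When the third ND array was left out 7 passed. Over these losses the limma adjusted p was 0.0509 to 0.185. With the array median as a covariate, an alternative chosen after seeing the data, the differences were 1.05 for Wnt3a, 0.60 for Wnt7b, 0.67 for Wnt3 and 0.72 for Fzd2, and none passed (limma adjusted p 0.243 to 0.339). In that fit 4 genes of the whole array passed, against 1142 without it. Every PTFC array was brighter than any HFD24 array, so brightness and extract cannot be fully told apart in this comparison. The fit therefore cannot decide between them. With the scaling step as a covariate 6 members passed, and with the replicate number as a block Wnt3a alone did (limma adjusted p = 0.0498).

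**Figure D3:**
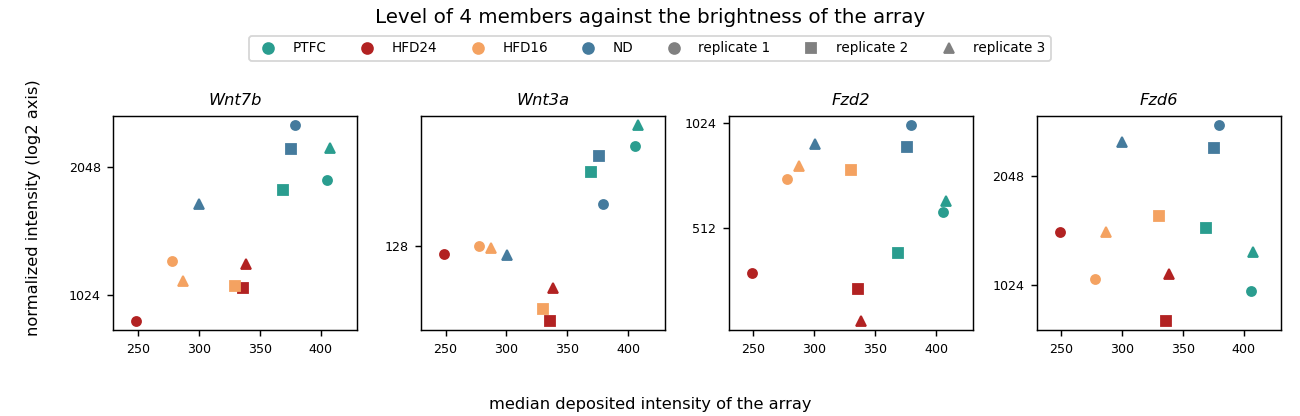
Normalized intensity (log2 axis) of Wnt7b, Wnt3a, Fzd2 and Fzd6 against the median deposited intensity of the array, with colours for groups and shapes for replicates. Wnt7b tended to be higher on brighter arrays, although within HFD16 the brightest array had its lowest value (1075), whereas Fzd6 was highest on the 3 ND arrays, whose medians ran from 300.3 to 379.

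Over the 12 arrays, the log2 level of Wnt7b had a Pearson r of 0.79 with log2 of the array median, and 0.71 after group means were removed. For all genes the 95th percentile of that r was 0.77 over arrays and 0.71 within groups. The ligands Wnt1, Wnt9b and Wnt10a had r of 0.77, 0.78 and 0.80, and Tcf7l1, a repressor of Wnt targets, had 0.92. For Wnt3a and Wnt3 the r was 0.62 and 0.66 over arrays but -0.07 and -0.11 within groups. For Fzd2 and Fzd6 it was 0.11 and 0.06 over arrays. Other members ran the opposite way, with r of -0.86 for Znrf3, -0.71 for Fzd3, -0.71 for Fzd4 and -0.69 for Rnf43, where the 5th percentile of all genes was -0.68. The median r was 0.02 over the members and -0.05 over all genes. These are descriptions over 12 points that share groups.

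Other members set the groups apart without passing. In all, 21 members, or 39.6%, did not overlap between PTFC and HFD24 arrays, 15 higher and 6 lower, against 31.1% of all genes (16% higher and 15.2% lower). Fzd9 read 539.6, 570.2 and 573 on PTFC arrays, against 352, 386 and 387 on HFD24 arrays (0.58 ± 0.16, limma adjusted p = 0.051). Dkk2 read 742, 690.2 and 1044 on PTFC arrays, against 361, 476 and 404 on HFD24 arrays (0.98 ± 0.30, limma adjusted p = 0.0698). Both were nearest to the threshold among members that did not pass. Of the other members called on the diet, Fzd6 had a difference of 0.17, Dkk3 of -0.32 and the dim Rspo1 of -0.76, and the PTFC arrays overlapped the HFD24 arrays in each.

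The central vein circuit in PTFC mice gave no call. Rspo3 read 836, 899 and 656 on PTFC arrays, all below the HFD24 arrays at 1093, 1249 and 1685 (-0.74 ± 0.23, limma adjusted p = 0.0742). Rnf43 read 2072, 1648 and 1503 on PTFC arrays, against 2981, 2647 and 2509 on HFD24 arrays (-0.65 ± 0.23, limma adjusted p = 0.102). Znrf3 read 441, 469 and 407 on PTFC arrays, against 572, 489 and 536 on HFD24 arrays (-0.28 ± 0.16, limma adjusted p = 0.305). In each of these 3 genes the PTFC arrays lay below the HFD24 arrays, yet the differences did not pass. Axin2 read 935, 1192 and 1025 on PTFC arrays and overlapped HFD24 (-0.10 ± 0.16, limma adjusted p = 0.756). Wnt2, Wnt9b, Lgr4, Lgr5, Lrp6, Fzd4, Tcf7l2 and Lef1 overlapped too.

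**Figure D4:**
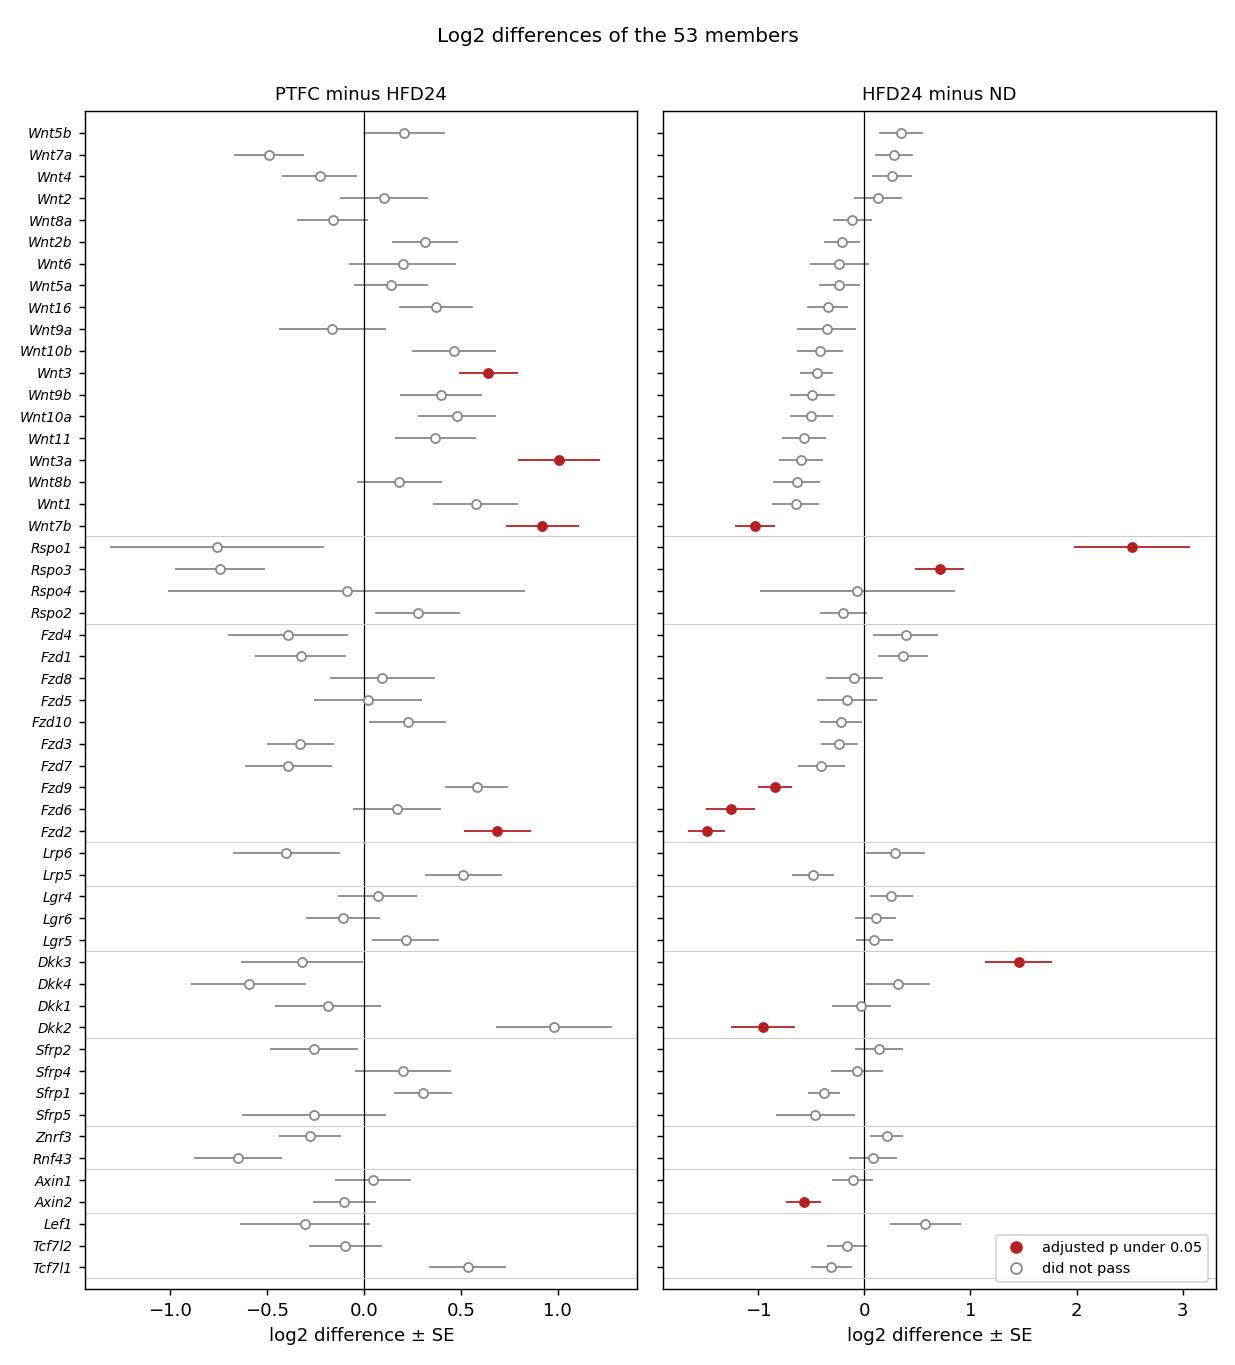
Log2 differences of the 53 members with their SE, PTFC minus HFD24 at the left and HFD24 minus ND at the right, in order of role and of size within the right panel. Filled points passed the test. Most Wnt ligands lay left of 0 for HFD24 minus ND (15 of 19), and the 4 filled points for PTFC minus HFD24 all lay right of 0.

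Set against normal diet, PTFC mice had 2 members called, both lower, which is 3.77% of members against 2.33% of all genes (1.04% higher and 1.28% lower). Arrays did not overlap in 13 members, 24.5% against 22.2% of all genes, with 4 higher (7.55% against 10%) and 9 lower (17.0% against 12.1%). At an unadjusted p under 0.05 in limma, 17.0% of members passed, against 17.1% of all genes. Fzd6 read 985, 1478 and 1266 on PTFC arrays, against 2831, 2450 and 2544 on ND arrays with no overlap (-1.09 ± 0.23, limma adjusted p = 0.0295). Fzd2 read 568, 432 and 612 on PTFC arrays, against 1009, 872 and 891 on ND arrays, and did not overlap either (-0.79 ± 0.17, limma adjusted p = 0.0334). The second Fzd2 probe gave -0.05 (limma adjusted p = 0.952), and with both probes averaged the difference was -0.42 (limma adjusted p = 0.185). A second Fzd5 probe passed too, at -0.88 ± 0.19 (limma adjusted p = 0.0305), while the brightest Fzd5 probe gave -0.14 and did not pass. Axin2 lay below ND on all 3 PTFC arrays and missed the threshold (-0.67 ± 0.16, limma adjusted p = 0.0528). The Fzd6 call was lost without the first or second ND or the first or the third PTFC array, and the Fzd2 call without any PTFC array, the first or second ND array or the third HFD16 array (limma adjusted p 0.0531 to 0.147). Neither passed with the array median, the scaling step or the replicate number in the model, with median centring or on the authors' scale, and without the third ND array 4 members passed.

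For HFD24 with ND, the share of genes called was 13.3% of cytoplasmic transducers, 20% of genes for Wnt secretion and 20% of other inhibitors. It was 7.69% of noncanonical genes, 41.7% of nuclear cofactors and 20% of Wnt targets outside the family, against 18.3% of all genes. Their median log2 differences were 0.05 for transducers, 0.11 for secretion, -0.19 for other inhibitors and 0.05 for noncanonical signalling. They were 0.32 for nuclear cofactors and -0.03 for Wnt targets, against -0.06 over all genes. For PTFC with HFD24, 1 nuclear cofactor and 1 Wnt target passed and no gene of the other 4 lists did, against 5.98% of all genes. Of 15 cytoplasmic transducers, 2 were lower on HFD24 arrays than on ND arrays and none higher: Apc2, an Apc relative of the beta-catenin destruction complex (-1.54, limma adjusted p = 0.00553), and Dvl1, a Dishevelled adaptor (-0.61, limma adjusted p = 0.023). None of those 15 passed in PTFC with HFD24. Of 5 genes for Wnt secretion, 1 rose on the diet: Wls, which carries Wnt proteins to the surface (1.24, limma adjusted p = 0.00531). Wls was also higher in PTFC with ND (1.18, limma adjusted p = 0.031), while its difference for PTFC with HFD24 was -0.06. Of 10 other secreted inhibitors and their receptors, Frzb rose (1.69, limma adjusted p = 0.000997) and Draxin fell (-0.76, limma adjusted p = 0.0157) on HFD24 arrays, both of them extracellular antagonists. Of 13 genes of noncanonical signalling, 1 rose, Prickle2, a planar polarity protein (1.27, limma adjusted p = 0.0104).

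Nuclear cofactors changed in both directions. Of 12 measured, 3 rose on HFD24 arrays against ND, the corepressors Tle3 (1.35), Ctbp2 (1.03) and Tle1 (0.64), and 2 fell, the coactivator Bcl9l (-0.64) and the corepressor Tle2 (-0.58), with limma adjusted p of 0.0149 to 0.0452. Tle2 was higher in PTFC than in HFD24 (0.76, limma adjusted p = 0.0332). Of 10 Wnt targets outside the family, Tnfrsf19, a receptor induced by Wnt, rose by 1.73 (limma adjusted p = 0.00222). Cd44, an adhesion receptor also carried by leukocytes, rose by 3.11 (limma adjusted p = 0.00226). Tnfrsf19 was lower in PTFC than in HFD24 (-1.19, limma adjusted p = 0.0379). The other 8 Wnt targets, Ccnd1 and Myc among them, did not pass in either comparison.

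Of genes that mark the zones of the hepatocyte plate, 5.26% of pericentral and 26.7% of periportal genes were called for HFD24 with ND. The share of all genes was 18.3%. The 2 list shares rest on 1 of 19 and 4 of 15 genes, and no test compared them. Of 19 pericentral genes, Axin2 alone passed on HFD24 arrays against ND, and none passed in PTFC with HFD24. The pericentral list includes the members Axin2, Lgr5 and Rnf43, so its Axin2 call is the one already given above. Glul, the glutamine synthetase gene and a strict beta-catenin target, had differences of -0.31 for HFD24 with ND (limma adjusted p = 0.263) and -0.01 for PTFC with HFD24. Of 15 periportal genes, 2 rose on HFD24 arrays against ND (Ctsc and Apoa4) and 2 fell (Etnppl and Hsd17b13). Etnppl and Hsd17b13 were both higher in PTFC than in HFD24, by 0.68 and 0.62 (limma adjusted p 0.0472 and 0.0373), which is 13.3% of the periportal list, against 2.94% of all genes called higher. The median difference for HFD24 with ND was -0.14 for the pericentral and -0.03 for the periportal list, against -0.06 over all genes.

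Markers of other cell types moved with the diet. Of 8 macrophage markers, 8 were higher on HFD24 arrays than on ND arrays, and so were 9 of 11 stellate and fibroblast markers (1 lower), 7 of 12 endothelial and 5 of 10 T and NK cell markers. In PTFC with HFD24, 4 stellate markers and 2 T and NK cell markers were lower, and no endothelial or macrophage marker passed. Of 6 hepatocyte markers 1, of 6 bile duct markers 2 and of 3 pancreas markers 1 were lower on HFD24 arrays than on ND arrays. Of 3 B cell markers, 1 was higher and 1 lower, and none of 4 genes on the mesothelial list passed. That list includes Krt8, which was dim and does not mark mesothelium alone. Over all genes, 10% were called higher and 8.29% lower for HFD24 with ND. For PTFC with HFD24 these shares were 2.94% and 3.04%. In lists of 3 to 6 markers, 1 or 2 calls say little beside such shares. Among all these markers, Krt8 alone was listed at 0. Median log2 differences for HFD24 with ND were 2.94 for macrophage, 1.65 for stellate and fibroblast, 0.76 for endothelial, 1.14 for T and NK cell and -0.11 for hepatocyte markers. For PTFC with HFD24 the same medians were -1.09, -0.57, -0.07, -0.79 and 0.26.

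**Figure D5:**
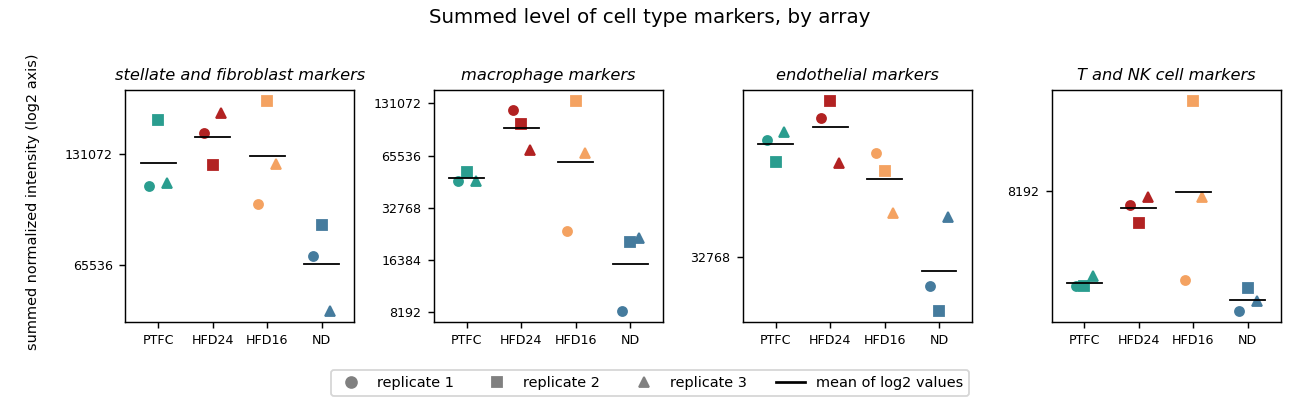
Summed normalized intensity (log2 axis) of 4 marker lists, 1 point per array, with bars at the means of log2 sums and groups from PTFC to ND. The HFD24 arrays lay above all ND arrays in each panel, and macrophage and T and NK cell sums were lower on every PTFC array than on any HFD24 array.

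Summed macrophage markers ran from 46915 to 52847 on PTFC arrays, 70416 to 119863 on HFD24 arrays, 24015 to 135546 on HFD16 arrays and 8289 to 21843 on ND arrays. Summed stellate and fibroblast markers ran from 107166 to 162235 on PTFC arrays, 122202 to 168927 on HFD24 arrays, 95838 to 182473 on HFD16 arrays and 49123 to 84016 on ND arrays. Summed endothelial markers ran from 48068 to 54356 on PTFC arrays, 47960 to 61541 on HFD24 arrays, 39175 to 49757 on HFD16 arrays and 26301 to 38461 on ND arrays. Each of these 3 sums was higher on all HFD24 arrays than on all ND arrays, with an exact two-sided permutation p of 0.1, the smallest that 3 against 3 arrays allow. Endothelial cells are a source of Wnt2, Wnt9b and Rspo3, not necessarily the only one, and stromal cells express Dkk3 and Frzb. In whole liver, fewer cells of a type and less RNA per cell cannot be told apart, and the part of these cells in the member changes was not tested.

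For the 6 members with the smallest p in HFD24 with ND, the genes with the most alike pattern over the 12 arrays were listed. For Wnt7b they were Bpifb6, Alpi and Gldn, with Pearson r of 0.98 to 0.99, and 0.85 to 0.94 after group means were removed. For Fzd9 they were Grik2, Ceacam20 and Zic2 (0.97, and 0.86 to 0.92 within groups). For Fzd2 they were Rp1l1, Vmn2r55 and Pea15b (0.95 to 0.97, and 0.62 to 0.80 within groups). For Fzd6 they were Ccnl1, Aff4 and Gapvd1 (0.94 to 0.95, and 0.76 to 0.88 within groups). For Dkk3 they were Adgra2, Ankrd44 and Arrb1 (0.97, and 0.90 to 0.98 within groups). For Rspo1 they were Cavin3, Tceal1 and the dim Efcab3 (0.93 to 0.94, and 0.71 to 0.85 within groups). These genes were picked for their correlation over the same 12 arrays, so the values are descriptions.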

How the data were processed

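RNA of whole mouse liver was measured on 12 single-colour (Cy5) arrays, 3 per group. The values are intensities that the authors deposited in 1 table of 26423 probes; background correction, scaling and the software used by the authors are not given in the sources used here. In all, 291 of the 317076 deposited intensities were below 0 and were set to 0 before log2. Platform annotation gave 1 symbol for 21876 probes and none for 4547.

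All probes were quantile normalized as log2(intensity + 1), and the brightest probe of each gene was fitted with limma 3.58.1 in R 4.3.3 over all 4 groups (lmFit and eBayes with an intensity trend), with Benjamini-Hochberg adjustment over 19084 genes and a threshold of 0.05. A normalized intensity is 2 to the power of the normalized log2 value, minus 1. No depth exists for arrays, and the number of arrays limits the precision. The fitting code was checked on simulated data. The simulated data held changes larger than most reported here and no effect of array brightness, so the check does not bear on these calls.

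Named members are those that passed in any comparison, the 3 of smallest p where fewer than 3 passed, and always Wnt2, Wnt9b, Rspo3, Lgr4, Lgr5, Axin2, Rnf43, Znrf3, Lrp6, Fzd4, Tcf7l2 and Lef1. Each list gave up to 4 genes of smallest p for HFD24 with ND and for PTFC with HFD24, and up to 6 members called for HFD24 with ND gave the 3 genes of highest correlation. Other members and list genes named were chosen after their values were seen. The members and lists were chosen with earlier results of these data known. Marker sums were compared with exact two-sided permutation tests. Alternatives were another pseudocount (32), median centring, the authors' scale, all probes averaged, dim genes left out, no intensity trend, the replicate number as a block, the scaling step of each array as a covariate and each array left out. The array median as a covariate was added after seeing the data. It was higher on every PTFC array than on any HFD24 array. In PTFC with HFD24, extract and array median therefore cannot be fully told apart. The scaling step is the unit in which the values of an array move, which differed between arrays from 0.675 to 1.46. It was 1.23 to 1.46 on ND arrays and 0.675 to 1.12 on all other arrays. In comparisons with ND, diet and scaling step therefore cannot be fully told apart. The labels do not say that replicate numbers pair the arrays. Same-numbered arrays of different groups had correlations of their deviations from group means of -0.287 to 0.165, and every pair was over 0.1 for HFD16 with ND alone (0.105 to 0.145), so blocked values stand beside that comparison. Differently numbered arrays had correlations of -0.193 to 0.26. Of these pairs 10 of 36 were over 0.1, against 4 of 18 same-numbered pairs. Promoters came from RefSeq, which held an entry for 34 of the 53 members.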

Additional observations from a re-analysis of the deposited data

Results flagged for a closer look

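On its brightest probe, Fzd2 was the member whose diet effect differed between both lengths of diet. The difference between HFD24 with ND and HFD16 with ND, which is HFD24 with HFD16 because the ND arrays cancel, was -1.17 on the log2 scale (limma adjusted p = 0.0349). Fzd2 read 379.9, 341 and 276 on HFD24 arrays, against 704, 751 and 772 on HFD16 arrays, so it was lower on 3 of 3 HFD24 arrays. A second Fzd2 probe gave 0.39, in the opposite direction. That second probe passed for HFD16 with ND (-0.68, limma adjusted p = 0.0497) and not for HFD24 with ND (-0.29), the reverse of the brighter probe. The call was lost in 16 of 21 alternative settings. HFD16 mice were 23 to 25 weeks old and HFD24 mice 31 to 33 weeks, so age and weeks of diet cannot be told apart.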

How the results depend on the processing

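No called member changed direction under any alternative run. With the array median as a covariate, added after seeing the data, 7 members, against 9, passed for HFD24 with ND (2135 genes, against 3490). For HFD16 with ND 5 members passed (1429 genes, against 3462). In that fit 0 members passed for PTFC with HFD24 (4 genes of all, against 1142), 0 for PTFC with ND and 0 for HFD24 with HFD16. With the scaling step as a covariate the counts were 3 members and 1086 genes for HFD24 with ND and 6 and 1656 for PTFC with HFD24. They were 0 and 54 for PTFC with ND, 0 and 219 for HFD16 with ND, and 1 and 11 for HFD24 with HFD16. Median centring and the authors' scale each left 0 members for PTFC with ND; with median centring 228 genes passed there, against 444, 225 of them shared, and 4 genes passed for HFD24 with HFD16, where 3 passed on the authors' scale. For HFD24 with HFD16, 0 members passed on the authors' scale, with pseudocount 32, with no intensity trend, with all probes averaged, or with the dimmest genes left out (3 genes over the whole array, against 7). The cause was not tested.

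With the replicate number as a block, 1 member and 336 genes passed for PTFC with HFD24, 0 members for PTFC with ND, and 0 members and 4 genes for HFD24 with HFD16; the members called were 6 for HFD24 with ND and 8 for HFD16 with ND.

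Leaving out 1 array at a time gave 6 to 16 members and 1728 to 4942 genes for HFD24 with ND, 0 to 7 and 11 to 1963 for PTFC with HFD24, 0 to 4 and 57 to 653 for PTFC with ND, 4 to 15 and 1333 to 4510 for HFD16 with ND, and 0 to 1 and 3 to 10 for HFD24 with HFD16.

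On the authors' scale the median over all genes moved to -0.23 for HFD24 with ND, 0.24 for PTFC with HFD24, 0.10 for PTFC with ND and -0.22 for HFD16 with ND, and median centring gave -0.13 for PTFC with HFD24. The share of higher calls over all genes was 41.4% on the authors' scale, against 54.7%, for HFD24 with ND, 34.6% against 55.3% for HFD16 with ND, 68.9% (32.5% with median centring) against 44.8% for PTFC with ND, and 66.7% (0% with median centring) against 42.9% for HFD24 with HFD16. Member medians on the authors' scale were -0.47 for HFD24 with ND and 0.35 for PTFC with HFD24, which is -0.24 and 0.10 relative to all genes there. With 3 arrays a group and 13 dim members, small changes of dim genes could not be resolved.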

Other observations

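Signals of the TGF-beta and BMP families, which act beside Wnt in liver, gave 3 higher and 1 lower call among 13 measured genes for HFD24 with ND, with a median log2 difference of -0.27. That is 30.8% of the list, against 18.3% of all genes called (10% higher and 8.29% lower). Gdf2, the circulating BMP made by stellate cells, rose by 1.20 (limma adjusted p = 0.00244). Smad6, an inhibitory mediator induced by BMP signals, rose by 1.01 (limma adjusted p = 0.00835), and Tgfb1, the main fibrogenic cytokine, rose by 0.85 (limma adjusted p = 0.00926). Tgfb2, a second TGF-beta ligand, fell by 1.03 on the log2 scale (limma adjusted p = 0.0287). For PTFC with HFD24, 15.4% of the list passed, against 5.98% of all genes. Tgfb2 was higher by 1.21 (limma adjusted p = 0.0354) and Bmp6, the endothelial inducer of hepcidin, was lower (-0.59, limma adjusted p = 0.0377).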
